A study of Mus musculus with 10 samples.

Results

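The genes described here are 8 protein-coding neighbours of *Cited2* on mouse chromosome 10: *Txlnb*, *Heca*, *Abracl*, *Reps1*, *Ect2l*, *Ccdc28a*, *Nhsl1* and *Hebp2*. They are a list of symbols of genes within about 1 Mb of *Cited2*, which leaves out *Arfgef3* and *Gm20125* at similar distances, and all 8 were found among the 26146 genes of the deposited counts. RNA was sequenced from LSK CD48-CD150+ hematopoietic stem cells (HSCs), with 1 library per mouse from 5 CTL and 5 CKO mice aged 8 to 12 weeks on the C57BL/6J background. The CTL mice, which the labels call wildtype, carried floxed *Cited2* alleles without Cre (*Cited2* fl/fl), and the CKO mice carried the same alleles with *Vav-iCre*, a transgene that drives Cre from *Vav* regulatory elements in blood cells from early development onward. Both genotypes therefore had the floxed alleles, so the comparison shows the deletion together with the Cre transgene, and an effect of the floxed alleles themselves cannot be told apart from the level in both groups.

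CITED2 is a transcriptional co-regulator that binds CBP and p300 and competes with HIF-1alpha for them. Enhancers can lie far from the promoter they act on, inside or beyond other genes, so removing DNA at one gene can also change the genes beside it. Such a local effect cannot be told apart here from an effect of losing CITED2 itself. The neighbours of *Cited2* were compared between the genotypes to look for changes of either kind. They share position and not function: *Heca* is the mouse counterpart of the fly gene headcase, *Abracl* and *Nhsl1* encode regulators of the actin cytoskeleton, *Reps1* encodes an EH domain protein of endocytosis, *Ect2l* is related to the cytokinesis gene *Ect2*, *Hebp2* encodes a heme-binding protein, *Txlnb* encodes the beta member of the taxilins, which bind syntaxins, and *Ccdc28a* encodes a coiled-coil protein.

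The libraries held 3058690 to 4548795 counts each. The markers of HSCs were present, with all 10 of a list that held *Procr*, *Slamf1*, *Mecom*, *Hlf* and *Kit* detected at a summed level of 2480 to 2837 CPM (counts scaled to a common library total) in CTL and 2235 to 2507 CPM in CKO libraries. The 4 B cell markers summed to at most 11.4 CPM, the 4 T cell markers to at most 12.05 CPM and the 4 skeletal muscle markers to at most 17.5 CPM in any library, and the 5 neutrophil and monocyte markers to 271.0 to 597.1 CPM in CTL and 279.0 to 452.1 CPM in CKO libraries. The 4 megakaryocyte markers summed to 373.2 to 453.9 CPM in CTL and 354.4 to 497.1 CPM in CKO libraries. The 5 erythroid markers summed to at most 33.5 CPM and the 4 stroma and endothelium markers to at most 26.75 CPM in any library. None of the markers that passed the filter was called between the genotypes. All 10 HSC, all 5 neutrophil and monocyte and all 4 megakaryocyte markers passed it. Only 2 of 5 erythroid, 2 of 4 stroma and endothelium, 1 of 4 T cell, 1 of 4 skeletal muscle and 0 of 4 B cell markers did. Since RNA was measured in bulk, fewer cells of a kind and less RNA per cell cannot be told apart. *Cited2* itself was at 101.3 to 221.6 CPM in the CTL libraries and at 3.80, 4.21, 5.00 and 8.30 CPM in CKO 1, CKO 2, CKO 4 and CKO 5. The library labelled CKO 3 goes against its label, with 120.1 CPM from 508 counts. The main results for *Cited2* and the members are therefore also given without it. Fold changes of genes farther along chromosome 10 and of relatives elsewhere in the genome are given with CKO 3 included. With all 10 libraries the log2 fold change (log2FC, CKO against CTL) of *Cited2* was -2.51 with a 95% interval from -4.66 to -0.36, and *Cited2* was not called (adjusted p = 0.328 by the quasi-likelihood test of edgeR after Benjamini-Hochberg correction); without CKO 3 the log2FC was -4.92 (adjusted p = 1.82e-06, edgeR).

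All measured neighbours but 1 lie on the same side of *Cited2*. *Cited2* spans 17723218 to 17725674 on chromosome 10 of GRCm38, on the plus strand. Towards higher coordinates follow *Txlnb* (17796226 to 17845665), *Heca* (17868612 to 17948067), *Abracl* (18011260 to 18023288), *Reps1* (18055861 to 18125155), *Ect2l* (18128903 to 18210890), *Ccdc28a* (18213676 to 18234998), *Nhsl1* (18318985 to 18533892) and *Hebp2* (18539498 to 18546076). *Txlnb*, *Reps1* and *Nhsl1* are on the plus strand and the other members on the minus strand. *Txlnb* begins 70552 bases and *Hebp2* 813824 bases after the end of *Cited2*. GENCODE M21 places 27 other genes within 1 Mb of *Cited2*, 11 before and 16 after it, most of them lincRNAs and pseudogenes. Of these, 10 had a row of counts, the 8 members with *Arfgef3* (18581839 to 18743949), which encodes a member of the ARF exchange factor family, and *Gm20125* (16906427 to 17095807), a noncoding transcript and the only one of the 10 on the other side.

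RefSeq promoters (GRCm38.p6, 250 bases before to 50 after the start) were matched for *Cited2* and for 6 of the 8 members, which have 8 promoters in all. The distal 200 bases of the *Cited2* and *Abracl* promoters, from 250 to 51 bases before the start, are shown for the deleted gene and for the most highly expressed neighbour. *Abracl* has a second promoter in the table, which overlaps the one shown and holds none of the motifs below. Capitals mark CACGTG, the palindromic E-box bound by MYC, which also contains ACGTG, a form of the core of hypoxia response elements. The form GCGTG was not searched. The *Cited2* stretch is chr10:17722978-17723177 on the plus strand and the *Abracl* stretch chr10:18023303-18023502 on the minus strand.
Cited2: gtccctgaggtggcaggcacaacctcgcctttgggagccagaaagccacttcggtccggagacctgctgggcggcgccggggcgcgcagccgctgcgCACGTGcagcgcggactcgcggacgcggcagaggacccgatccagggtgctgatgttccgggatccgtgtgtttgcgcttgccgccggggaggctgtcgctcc
Abracl: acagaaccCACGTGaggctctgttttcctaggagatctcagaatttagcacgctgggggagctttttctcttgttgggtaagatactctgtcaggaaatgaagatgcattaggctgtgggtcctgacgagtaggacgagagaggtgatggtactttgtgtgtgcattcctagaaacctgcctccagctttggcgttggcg
Searched on both strands of the whole 300-base windows, CACGTG stood in 2 of 8 member promoters, the *Abracl* promoter shown and that of *Ect2l*, and in 7.15% of all 32851 promoters. The same 2 held ACGTG, against 19.6% of all promoters, and none held the RUNX motif TGTGGT, against 16.8%. The matches describe letters only and say nothing of binding.

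The members covered a wide range of levels in HSCs. Per kb of gene length, *Abracl* was the highest, at 113 ± 12.7 CPM per kb over all 10 libraries (SD), above 96.05% of all tested genes. In the CTL libraries *Abracl* was at 105.1 ± 12.3 and *Cited2* at 82.9 ± 21.7 CPM per kb (SD, n = 5), with *Cited2* the higher one in CTL 4 (112.5 against 104.1 CPM per kb). *Ccdc28a* followed with 29.5 ± 5.09, *Reps1* with 12.1 ± 2.97 and *Heca* with 6.37 ± 1.96 CPM per kb. These 4 genes kept that order within nearly every library: *Abracl* was above *Ccdc28a* and *Ccdc28a* above *Reps1* in 10 of 10 libraries, *Reps1* above *Heca* in 9 and *Heca* above *Ect2l* in 10. *Ect2l*, *Nhsl1*, *Txlnb* and *Hebp2* lay together between 1.15 and 1.46 CPM per kb, at percentiles 7.57 to 10.3 of tested genes. Their order was not resolved, since each was above the next in only 5 or 6 of 10 libraries.

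**Figure D1:**
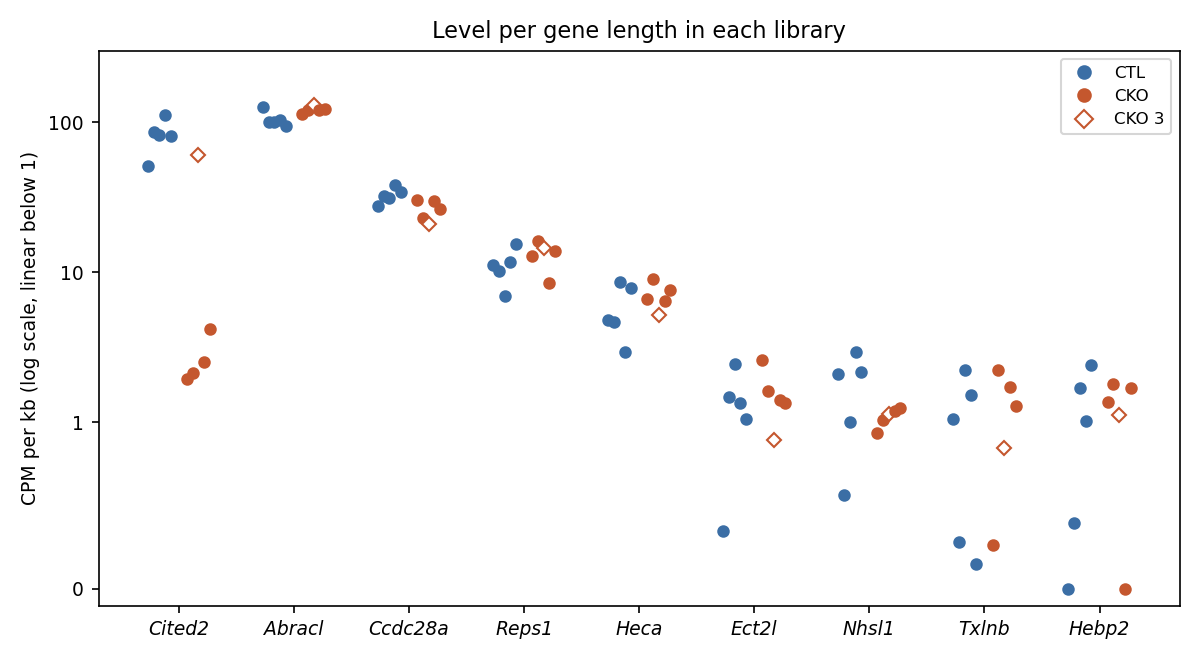
Level of *Cited2* and its 8 neighbours in each library, as CPM divided by gene length in kb on an axis that is logarithmic above 1 and linear below it. Points are libraries (blue CTL, orange CKO, open diamond CKO 3), n = 5 per genotype. *Abracl* lies near 100 in every library, while *Ect2l*, *Nhsl1*, *Txlnb* and *Hebp2* overlap near 1.

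All 8 members passed the filter on low counts and none was called between the genotypes. With an adjusted p under 0.05 and a fold change above 20%, edgeR's quasi-likelihood fit called 0 of 8 members, where it called 32 of all 14165 tested genes (0.226%). At an unadjusted p under 0.05 it was 1 of 8 members, *Abracl*, against 12.9% of tested genes. Members without overlap of CPM between the genotypes numbered 0 of 8, against 3.33% of tested genes. DESeq2's Wald test called 0 of the 7 members to which it gave an adjusted p, against 2.43% of genes. The median log2FC of the members was 0.23 and that of all tested genes 0.0065, with 6 members (75%) having a positive and 2 a negative log2FC, against 51.05% positive over all tested genes. Corrected for GC content and length, the median of the members was 0.091, and with 1 library left out it ranged from 0.064 (without CKO 2) to 0.24. Without CKO 3 the members had log2FC values between -0.67 and 0.39 (adjusted p from 0.532 to 0.976, edgeR), 0 of them had an unadjusted p under 0.05, and 0 of 8 members were called against 0.292% of genes.

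**Figure D2:**
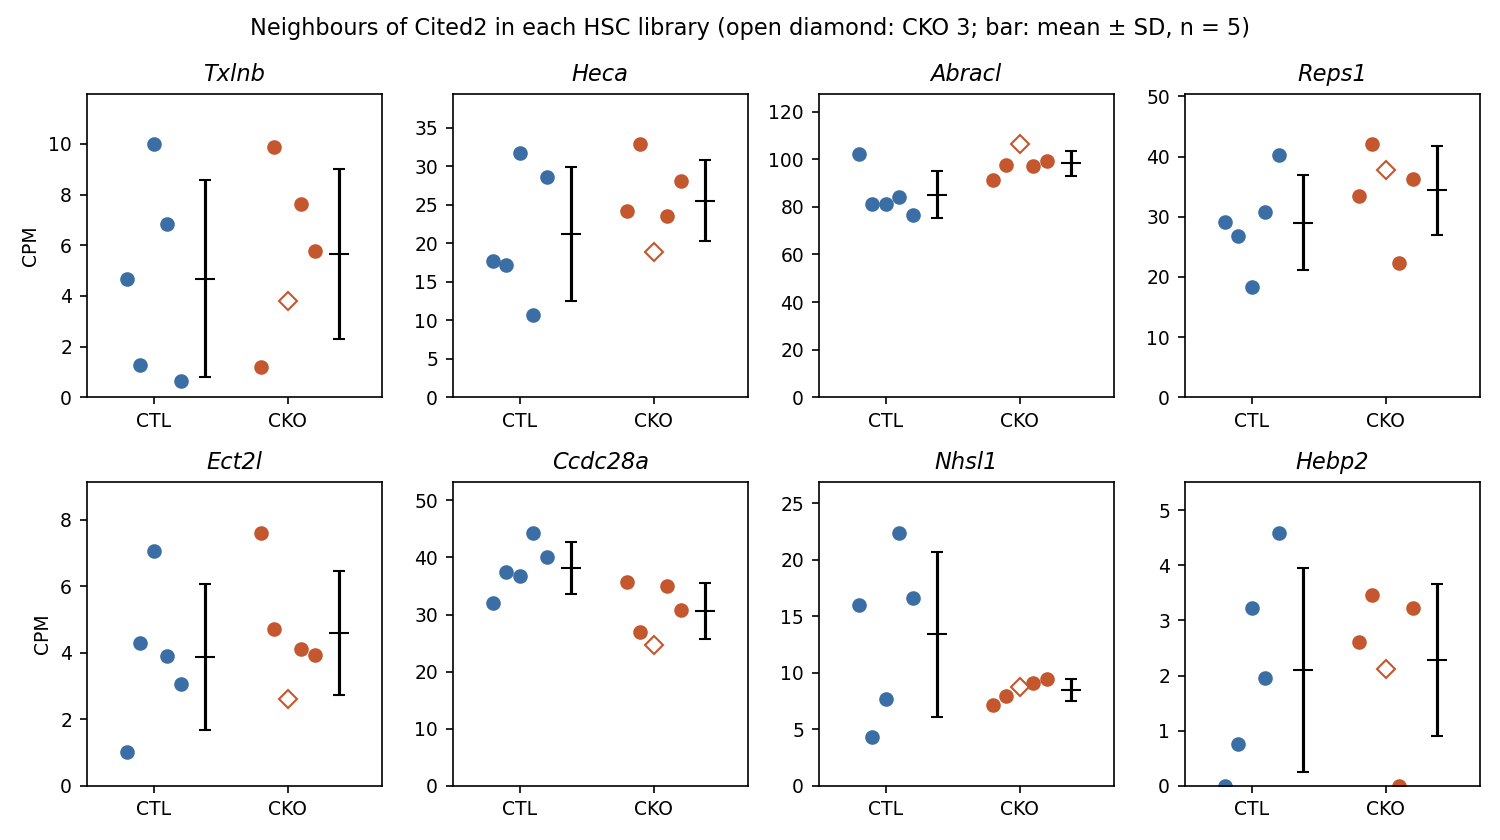
CPM of each of the 8 neighbours by genotype, each panel on its own linear axis from 0. Points are libraries (open diamond, CKO 3) and the bar beside them gives the mean ± SD, n = 5. In every panel the CTL and CKO points overlap, and the CKO points of *Nhsl1* sit together between 7.13 and 9.45 CPM while its CTL points range from 4.29 to 22.4 CPM.

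*Abracl*, the neighbour measured with most counts (276 to 450 per library), had the narrowest interval. It was at 102.3, 81.1, 81.1, 84.3 and 76.8 CPM in CTL 1 to CTL 5 and at 91.5, 97.5, 106.4, 97.3 and 99.1 CPM in CKO 1 to CKO 5. Each CKO library was above 4 of the CTL libraries, but CTL 1 lay above all CKO libraries except CKO 3, so the genotypes overlapped. The means were 85.1 ± 9.98 and 98.3 ± 5.32 CPM (SD, n = 5 each), and the log2FC was 0.21 with a 95% interval from 0.0058 to 0.42 (adjusted p = 0.379, edgeR). That interval holds folds from 1.004 to 1.33. Without CTL 1 the log2FC of *Abracl* was 0.28 with a 95% interval from 0.089 to 0.46 (adjusted p = 0.251, edgeR). Without CKO 3 it was 0.18 with an interval from -0.040 to 0.40 (adjusted p = 0.532, edgeR). After a joint correction for GC content and length its log2FC was 0.062 with a 95% interval from -0.18 to 0.30 (adjusted p = 0.971, edgeR). The GC content of *Abracl* was 43.03%, against a median of 48.8% over tested genes, and the parts of GC content and of length in the result were not tested. An antisense pseudogene, *Gm17711*, shares 237 exon bases with *Abracl*, and the pseudogene *Gm45456* matches its transcript over 243 bases at 97.9% identity; neither had a row of counts, and no other member matched a transcript of another gene over at least 85 bases at 97% identity.

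*Ccdc28a* was the other neighbour with at least 96 counts in each library. It was at 32.1, 37.4, 36.8, 44.4 and 40.04 CPM in CTL 1 to CTL 5 and at 35.7, 26.96, 24.6, 34.98 and 30.9 CPM in CKO 1 to CKO 5. CKO 2, CKO 3 and CKO 5 were below every CTL library, while CKO 1 and CKO 4 lay among them, with CKO 3 the lowest of all 10. The means were 38.1 ± 4.51 and 30.6 ± 4.85 CPM (SD, n = 5 each), and the log2FC was -0.32 with a 95% interval from -0.65 to 0.0097 (adjusted p = 0.402, edgeR). After correction for GC content and length the log2FC was -0.42 with a 95% interval from -0.76 to -0.075 (adjusted p = 0.616, edgeR), and with limma-voom it was -0.35 with an interval from -0.67 to -0.023 (adjusted p = 0.336, limma-voom). These intervals left out 0, but *Ccdc28a* was not called. Under the other alternatives some intervals left out 0 and others held it. Without CKO 3 the log2FC of *Ccdc28a* was -0.25 with an interval from -0.59 to 0.088 (adjusted p = 0.582, edgeR). With the replicate number as a block it was -0.32 with an interval from -0.69 to 0.041 (adjusted p = 0.46, edgeR). The direction was opposite to that of *Abracl*.

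*Reps1* and *Heca* varied more between mice of a genotype than the genotypes differed. *Reps1* was at 29.1, 26.8, 18.2, 30.7 and 40.3 CPM in CTL 1 to CTL 5 and at 33.5, 42.06, 37.8, 22.3 and 36.2 CPM in CKO 1 to CKO 5. Only CKO 2 was above the highest CTL library and the remaining CKO libraries lay within the CTL range. Its means were 29.01 ± 7.92 and 34.4 ± 7.41 CPM (SD, n = 5 each), and the log2FC was 0.24 with a 95% interval from -0.22 to 0.70 (adjusted p = 0.683, edgeR), which was 0.12 after correction for GC content and length. Leaving out 1 library gave 0.11 without CTL 3, 0.16 without CKO 2 and 0.39 without CTL 5. *Heca* was at 17.7, 17.2, 31.8, 10.7 and 28.7 CPM in CTL 1 to CTL 5 and at 24.2, 32.9, 18.9, 23.5 and 28.1 CPM in CKO 1 to CKO 5. CTL 3 and CTL 5 were as high as the higher CKO libraries, and CKO 3 was the lowest CKO library. The means of *Heca* were 21.2 ± 8.73 and 25.5 ± 5.26 CPM (SD, n = 5 each), and the log2FC was 0.27 with a 95% interval from -0.32 to 0.85 (adjusted p = 0.728, edgeR), which was 0.095 without CTL 4, 0.16 without CKO 2, 0.40 without CTL 5 and 0.45 without CTL 3.

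*Nhsl1*, whose protein restrains the SCAR/WAVE complex at the leading edge of cells, had the most negative log2FC of the 8 genes. It was at 16.05, 4.29, 7.64, 22.4 and 16.6 CPM in CTL 1 to CTL 5 and at 7.13, 7.92, 8.74, 9.11 and 9.45 CPM in CKO 1 to CKO 5. CTL 1, CTL 4 and CTL 5 were above every CKO library and CTL 2 was below every CKO library. The means were 13.4 ± 7.33 and 8.47 ± 0.942 CPM (SD, n = 5 each), and the log2FC was -0.66 with a 95% interval from -1.50 to 0.18 (adjusted p = 0.509, edgeR). The spread of the CTL libraries was 3.79 times the SD that counting alone would give (1.93 CPM), and that of the CKO libraries 0.646 times (1.46 CPM). Leaving out CTL 4 gave a log2FC of -0.40 with an interval from -1.28 to 0.48 (adjusted p = 0.759, edgeR). Leaving out CTL 2 gave -0.89 with an interval from -1.60 to -0.18, which left out 0 (adjusted p = 0.397, edgeR).

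*Txlnb*, *Ect2l* and *Hebp2* had few counts, each with fewer than 10 counts in at least 1 library. *Txlnb*, the protein-coding gene closest to *Cited2*, had 14, 5, 34, 28 and 3 counts in CTL 1 to CTL 5 and 5, 40, 16, 26 and 25 counts in CKO 1 to CKO 5. Low and high libraries occurred in both genotypes. The means were 4.68 ± 3.90 and 5.65 ± 3.37 CPM (SD, n = 5 each), and the log2FC was 0.28 with a 95% interval from -1.23 to 1.79 (adjusted p = 0.905, edgeR). The highest values, 9.995 CPM in CTL 3 and 9.89 CPM in CKO 2, came from the library with the most detected genes in each genotype (22045 in CTL 3 and 22831 in CKO 2, of a range from 17323 to 22831); the part of this in the result was not tested.

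*Ect2l* had 3, 17, 24, 16 and 14 counts in CTL 1 to CTL 5 and 32, 19, 11, 14 and 17 counts in CKO 1 to CKO 5. CTL 1 was the lowest and CKO 1 the highest, with the other libraries of both genotypes between them. The means were 3.86 ± 2.19 and 4.59 ± 1.85 CPM (SD, n = 5 each), and the log2FC was 0.24 with a 95% interval from -0.91 to 1.39 (adjusted p = 0.888, edgeR). *Hebp2*, the farthest member, had 0, 3, 11, 8 and 21 counts in CTL 1 to CTL 5 and 11, 14, 9, 0 and 14 counts in CKO 1 to CKO 5. Each genotype thus had 1 library without a count. Its means were 2.11 ± 1.85 and 2.29 ± 1.38 CPM (SD, n = 5 each), and the log2FC was 0.11 with a 95% interval from -1.77 to 1.98 (adjusted p = 0.973, edgeR). For these 3 genes the intervals hold more than a 2-fold change in at least 1 direction, and the SD within a genotype was 1.73 to 3.54 times what counting alone would give.

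**Figure D3:**
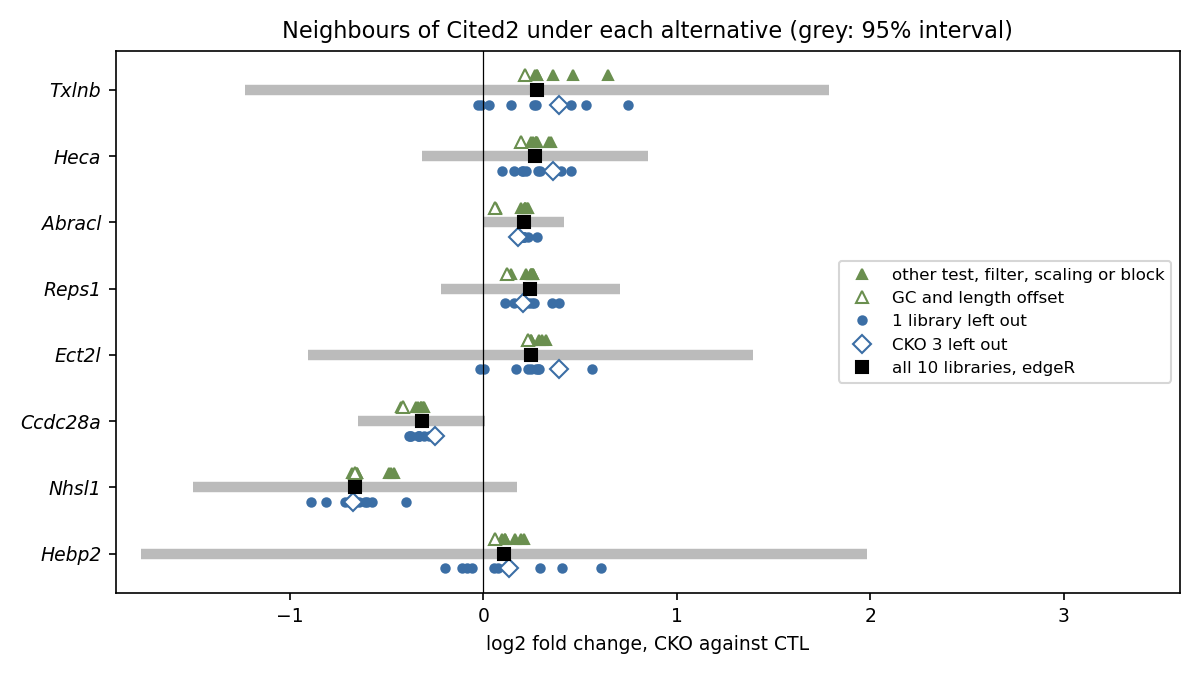
Log2 fold change of each neighbour, CKO against CTL, over all 10 libraries (black square, with the 95% interval in grey), with 1 library left out (blue, open diamond without CKO 3) and with another test, filter, scaling or replicate block (green, open triangle after correction for GC content and length). *Abracl*, *Heca* and *Reps1* stay above 0 and *Ccdc28a* and *Nhsl1* below 0, while *Txlnb*, *Ect2l* and *Hebp2* cross 0 when 1 library is left out.

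CKO 3, the library that kept *Cited2* RNA, did not stand to one side of the other CKO libraries in all members. It was the highest of the CKO libraries for *Abracl* and the lowest for *Heca*, *Ect2l* and *Ccdc28a*. For *Reps1*, *Nhsl1*, *Txlnb* and *Hebp2* it lay between them. Over the remaining 4 CKO libraries the means were 96.3 ± 3.32 CPM for *Abracl*, 27.2 ± 4.31 CPM for *Heca* and 32.1 ± 4.03 CPM for *Ccdc28a* (SD, n = 4).

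Other genes near *Cited2* were described in the same way. *Arfgef3* was at 6.13 ± 3.27 CPM in CTL and 6.90 ± 3.96 CPM in CKO libraries, and *Gm20125*, on the other side of *Cited2*, at 4.33 ± 4.01 and 2.36 ± 2.21 CPM (SD, n = 5 each). Their log2FC values were 0.16 (adjusted p = 0.937, edgeR) and -0.84 (adjusted p = 0.770, edgeR), and neither was called. The log2FC of *Gm20125* was -0.21 without CTL 1, -1.21 without CKO 3, -0.54 without CKO 4 and -0.53 without CKO 5. With the GC content and length correction and a block for the replicate number it was -1.35. Without CKO 3 the log2FC of *Arfgef3* was 0.098. Of the 56 genes with counts from 1 to 5 Mb away, 39 were tested and 0 called, against 0.226% of all tested genes. Among these 39 genes, 2 (5.13%) had an unadjusted p under 0.05 (edgeR), against 12.9% of all tested genes. Their median log2FC was -0.0076, with 19 higher and 20 lower. The 3 with the smallest p were *Tnfaip3*, *Bclaf1* and *Ltv1*. *Tnfaip3* encodes the NF-kB inhibitor A20 and lies 1275236 bases from *Cited2*. It was at 48.2 ± 15.05 CPM in CTL and 73.7 ± 9.65 CPM in CKO libraries (SD, n = 5 each). The log2FC of *Tnfaip3* was 0.61 (adjusted p = 0.218, edgeR). CKO 3 was its lowest CKO library, and the mean of the remaining CKO libraries was 76.4 ± 8.68 CPM (SD, n = 4). For *Ltv1*, a ribosome assembly factor gene, all CKO libraries (169.4 to 180.2 CPM) were above all CTL libraries (152 to 164 CPM), with a log2FC of 0.13 (adjusted p = 0.397, edgeR), and *Bclaf1* had 0.15 (adjusted p = 0.336, edgeR). Over the rest of chromosome 10, 0 of 641 tested genes were called, against 0.226% of all tested genes, and the median log2FC was 0.018. An unadjusted p under 0.05 (edgeR) was found for 12.3% of these 641 genes, against 12.9% of all tested genes.

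**Figure D4:**
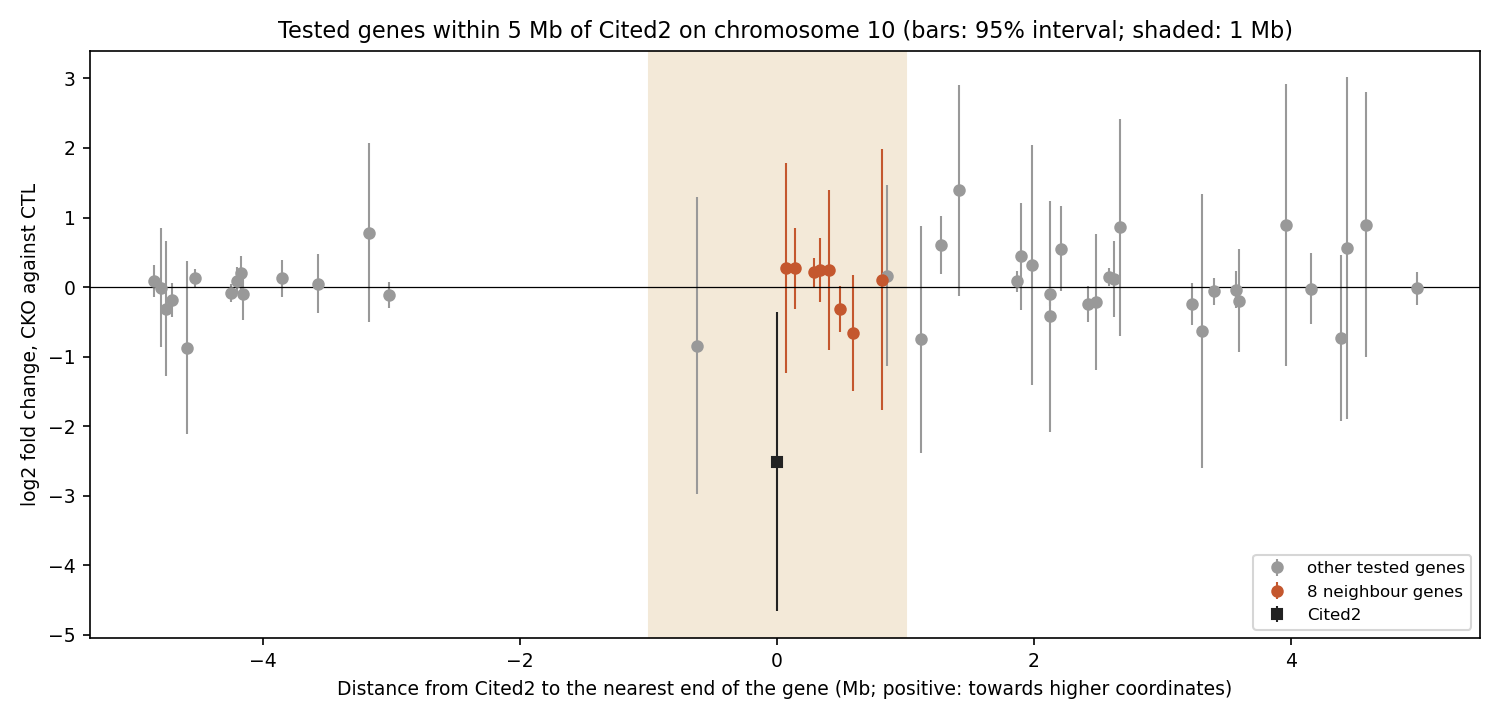
Log2 fold change, CKO against CTL, of each tested gene within 5 Mb of *Cited2*, against the distance in Mb from *Cited2* to the nearest end of the gene; positive distances point to higher coordinates. Bars are 95% intervals from 5 libraries per genotype, orange points the 8 neighbours, grey points other genes and the black square *Cited2*. *Cited2* lies at -2.51, while the 8 neighbours lie between -0.66 and 0.28.

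Relatives of the members elsewhere in the genome were compared to see whether the gene families moved apart from their position. Of 9 such genes, 8 were tested and 0 were called, against 0.226% of all tested genes. *Txlna* and *Txlng*, the other taxilins, were expressed above *Txlnb*, with 48.3 ± 4.79 and 27.5 ± 1.12 CPM per kb in CTL libraries against 1.05 ± 0.874 for *Txlnb* (SD, n = 5). Their log2FC values were -0.22 and 0.026. *Ect2* was at 22.3 ± 2.70 CPM per kb in CTL libraries against 1.33 ± 0.755 for *Ect2l* (SD, n = 5), and *Hebp1* at 17.2 ± 1.86 against 1.10 ± 0.971 for *Hebp2*. For these families the copy next to *Cited2* was thus the lower one. For *Reps1* and *Abracl* the copy next to *Cited2* was the higher one: *Reps2* was at 2.07 ± 0.898 CPM per kb against 11.1 ± 3.02 for *Reps1*, and *Abra*, which was not tested, at 0.465 ± 0.616 against 105.1 ± 12.3 for *Abracl* (SD, n = 5, CTL). *Ccdc28b* was at 53.2 ± 4.33 and *Ccdc28a* at 32.7 ± 3.87 CPM per kb. *Nhsl2*, a relative of *Nhsl1* on the X chromosome, was at 15.3 ± 4.60 CPM in CTL and 27.2 ± 16.4 CPM in CKO libraries (SD, n = 5 each). Its log2FC was 0.83 (adjusted p = 0.369, edgeR), opposite in sign to that of *Nhsl1*, but neither gene was called. The highest CKO library of *Nhsl2* was CKO 5, at 54.2 CPM. The lowest was CKO 3, at 10.4 CPM, within the CTL range of 7.69 to 19.9 CPM. The remaining log2FC values were -0.17 for *Ect2*, -0.18 for *Ccdc28b*, -0.34 for *Hebp1*, -0.36 for *Reps2* and 1.54 for *Nhs*, which had at most 20 counts in a CTL library.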

How the data were processed

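HISAT2 (alignment to GRCm38) and Rsubread (counting) were run by the authors on single-ended reads, and they deposited raw counts per gene symbol without normalization, and the length of each gene in bases (unit: other). The annotation used for counting, the use of strand and the treatment of multi-mapped or duplicate reads are not given in the sources used here, so overlapping genes and pseudogene copies are uncertain. The totals are far below the number of reads sequenced per sample in the study's methods, and the step between them is not given in the sources used here. Genes were placed with GENCODE M21 (25358 of 26146 symbols matched).

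Counts were compared in R 4.3.3 with edgeR 4.0.16 (filterByExpr with a minimum count of 10, TMM, robust quasi-likelihood F test, Benjamini-Hochberg adjustment over 14165 genes). Intervals are logFC ± the 95% t quantile times its standard error. The common biological coefficient of variation was 25.3%. CPM are per normalized total of tested genes; levels between genes are CPM per kb. DESeq2 1.42.0 and limma-voom (limma 3.58.1) were alternatives, with DESeq2 size factors, other filters, the replicate number as a block, a loess correction for GC content and length (span 50%, as an offset), and each library left out. The edgeR script was tested on simulated data. *Cited2*, the members, genes within 1 Mb, the called genes or otherwise the 3 with the smallest p from 1 to 5 Mb and over the rest of chromosome 10, fixed paralogs, and the 2 genes most like each of the 3 highest members were named. The members and lists were chosen with earlier results of these data known.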

Additional observations from a re-analysis of the deposited data

Results flagged for a closer look

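The *Cited2* level in CKO 3, 120.1 CPM, stood far from the other 4 CKO libraries (3.80 to 8.30 CPM): the gap to the nearest of them was 0.961 of the range of the group, above the critical value of 0.710 for 5 samples. Among 22 groups examined (11 genes in 2 genotypes) this was the only one, and about 1 in 20 such groups is expected by chance. None of the 8 neighbours had such a library in either genotype. For *Abracl*, CTL 1 at 102.3 CPM stood apart from the other CTL libraries (76.8 to 84.3 CPM) without reaching the critical value. With CKO 3 included, an exact permutation test (two-sided, n = 5 each) of the *Cited2* difference of -135 CPM between CKO and CTL gave p = 0.0159, where the smallest possible p was 0.00794.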

How the results depend on the processing

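No member was called under any of the 18 alternatives (lowest adjusted p 0.251, edgeR without CTL 1). Of 141 values of the members under alternatives, 134 kept their direction. The 7 that did not were *Txlnb* (without CTL 5 or CKO 2), *Ect2l* (CKO 1) and *Hebp2* (CTL 1, CTL 2, CKO 2 or CKO 5), whose log2 fold changes ranged from -0.029 to 0.75, -0.018 to 0.56 and -0.20 to 0.61. For *Arfgef3* the log2 fold change was -0.31 with limma-voom, -0.0067 after correction for GC content and length and -0.18 with that correction and the replicate block, and from -0.080 to 0.50 with 1 library left out. With at least 10 counts in every library only 5 members were left. The median of the members was 0.23, 0.091 with the correction and 0.064 without CKO 2. Over all genes 32 were called, 338 with DESeq2, 8 with the correction and 12 with the correction and the replicate block. With 1 library left out the calls ranged from 8 to 42: 16, 11, 16 and 10 without CTL 1 to CTL 4, and 14, 8 and 14 without CKO 1, CKO 2 and CKO 5. The cause of these differences was not tested. *Cited2* had a log2 fold change of -2.51, -3.99 with limma-voom (adjusted p = 0.0341), and from -4.92, without CKO 3, to -2.23 with 1 library left out. The labels number the libraries of each genotype from 1 to 5 and do not say what libraries of the same number share. The deviations of same-numbered libraries from the genotype means had correlations from -0.095 to 0.21. These values cannot show whether the libraries were paired. With the replicate number as a block 24 genes and 0 members were called and the median of the members was 0.23. *Ect2l*, *Nhsl1* and *Txlnb* changed rank in level without division by length.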

Other observations

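Over the rest of chromosome 10, the 3 genes with the smallest p were *Tespa1*, *Pkib* and *Tle2*, the closest of them, *Pkib*, 39906307 bases from *Cited2*. *Tespa1*, a gene of T cell receptor signaling, was at 8.98 ± 3.64 CPM in CTL and 31.7 ± 15.8 CPM in CKO libraries (SD, n = 5 each), and the log2FC was 1.81 (adjusted p = 0.0822, edgeR). Its lowest CKO library was CKO 3, at 9.22 CPM, within the CTL range of 5.02 to 13.4 CPM. *Pkib*, which encodes an inhibitor of protein kinase A, was at 9.97 ± 3.90 and 23.7 ± 7.44 CPM, with a log2FC of 1.24 (adjusted p = 0.0986, edgeR). *Tle2*, a Groucho family corepressor gene, was at 47.4 ± 8.05 and 30.4 ± 5.22 CPM, with a log2FC of -0.64 (adjusted p = 0.117, edgeR). For *Pkib* and *Tle2*, CKO 3 lay in the middle of the CKO libraries (rank 3 of 5).

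Among 14164 tested genes, those whose log2 CPM over the 10 libraries was most like that of *Abracl* were *Gpd1l* (Pearson r = 0.934) and *Rnf146* (0.929), the latter also on chromosome 10. *Acbd4* (0.944) and *Sh3bp1* (0.935) were most like *Ccdc28a*, and *Ube2f* (0.930) and *Smad4* (0.919) most like *Reps1*. None of the 8 neighbours was among these genes. These were the genes with the 2 highest coefficients for each member, over both genotypes pooled, so the values are a description and were not tested.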
